A study of Mus musculus with 6 samples.

Results

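The genes described here are 5 genes whose signal was lower when mouse stromal cells were given FGF2, named on the array as 9430052C07RIK, RASL11B, FAM107A, ADH7 and CDO1. They were chosen on the contrast of FGF2 with the untreated condition, and every probe that carries one of these names was taken, which gave 7 probes of the 45281 on the table and 5 of its 30854 names. All 7 probes passed the filter on dim probes, among 16111 probes and 11872 genes that did. Because the fall with FGF2 chose the genes, it is given below as a description with no test.

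PA6 is a mouse stromal cell line, grown here without any other cell type as confluent monolayers in 6-well plates. Cells were kept for 3 h in serum-free medium with no growth factor (-GFs), with 20 ng/ml FGF2 or with 10 ng/ml BMP4, and each group had 2 arrays. One biological replicate was a set of wells, 1 for each treatment, so that arrays with the same replicate number belong together. PA6 is 1 established line, so the replicates are cultures of the same cells and not different animals. RNA was hybridised to Illumina bead arrays, and the question put to these cultures was which genes of the stroma respond early to either factor.

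FGF2 binds receptor tyrosine kinases and acts largely through the RAS-MAPK cascade, which switches on immediate early genes and the feedback phosphatases that later damp it. BMP4 binds serine/threonine kinase receptors and acts through SMAD proteins, and the ID genes are its best known early targets. The 5 genes come from unrelated families. 9430052C07RIK is an older clone name for a long noncoding RNA gene that RefSeq now calls C430049B03Rik and that is the host of the miR-322, miR-503 and miR-351 cluster. RASL11B encodes a small GTPase of the RAS-like family. FAM107A encodes an actin-associated protein known as DRR1 and is a target of the glucocorticoid receptor. ADH7 encodes a class IV alcohol dehydrogenase that oxidises retinol and ethanol. CDO1 encodes cysteine dioxygenase, which commits cysteine to the route towards taurine and sulfate.

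The noncoding gene is shown first by the small RNAs it hosts, since these are its known products and the array has no value for them. In RefSeq on GRCm38.p6 the gene lies at chrX:53053112-53057190 and holds 3 miRNA genes on the minus strand. The capitals mark the seed, bases 2 to 8 of the mature RNA, 5′ to 3′.
mmu-miR-322-5p: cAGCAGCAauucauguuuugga
mmu-miR-503-5p: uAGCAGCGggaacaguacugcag
mmu-miR-351-5p: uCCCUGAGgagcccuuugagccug

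These are chrX:53054306-53054327, chrX:53054027-53054049 and chrX:53053315-53053338. Among the 1679 mature mouse miRNAs of the table, the seed of miR-322-5p is shared with 9 others, which include miR-15a-5p, miR-16-5p, miR-195a-5p and miR-497a-5p. The seed of miR-351-5p is that of miR-125a-5p and miR-125b-5p, with 4 others in all, and the seed of miR-503-5p is shared with 0 others.

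For the coding genes the 250 bases before a RefSeq start site are printed where the table holds them, because genes that fall together are often compared by their promoters. Searched on both strands were AP-1 (TGANTCA), CRE (TGACGTCA), the E-box (CACGTG), FOXO (GTAAACA), EGR (GCGGGGGCG), ETS (CCGGAAG), the TATA box (TATAAA), the glucocorticoid receptor half-site (AGAACA) and the antioxidant response element (TGACNNNGC). Capitals mark a match, and each line gives the plus or minus strand of GRCm38.p6 that is read.
Rasl11b, chr5:74195076-74195325, plus strand: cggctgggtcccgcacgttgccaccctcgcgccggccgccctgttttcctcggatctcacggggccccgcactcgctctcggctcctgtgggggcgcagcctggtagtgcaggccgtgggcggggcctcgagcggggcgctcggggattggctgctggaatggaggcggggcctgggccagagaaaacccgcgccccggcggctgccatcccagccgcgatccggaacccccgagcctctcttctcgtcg
Fam107a, inner start, chr14:8309780-8310029, minus strand: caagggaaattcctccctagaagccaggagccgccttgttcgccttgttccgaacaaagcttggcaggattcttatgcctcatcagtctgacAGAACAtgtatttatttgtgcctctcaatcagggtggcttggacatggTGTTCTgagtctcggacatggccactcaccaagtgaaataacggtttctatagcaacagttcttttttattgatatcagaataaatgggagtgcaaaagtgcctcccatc
Adh7, chr3:138217523-138217772, plus strand: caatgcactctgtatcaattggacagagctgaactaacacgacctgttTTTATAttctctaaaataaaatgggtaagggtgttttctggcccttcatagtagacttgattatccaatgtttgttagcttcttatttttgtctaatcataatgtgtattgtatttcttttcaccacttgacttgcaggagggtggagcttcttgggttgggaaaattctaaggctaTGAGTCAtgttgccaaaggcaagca

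The 3 windows had no motif of this set in common. The Rasl11b window was 74.0% G and C with 30 CpG and held no match, and the Adh7 window was 38.0% G and C with 1 CpG, against a median of 52.4% and 6 CpG over 32851 start sites of 27025 genes. The Fam107a inner window was 45.6% G and C with 5 CpG. It held 2 glucocorticoid receptor half-sites, which begin at -158 and -110 from the start, a motif found in 16.1% of all windows. A further Fam107a start lies 2 bases away and has the same matches. The outermost Fam107a window, at chr14:8317608-8317857 and not printed, held none and was 62.8% G and C with 11 CpG. The Adh7 window held an AP-1 match that begins at -25 and a TATA match on the other strand that begins at -202. AP-1 was matched in 6.75% and TATA in 12.4% of all windows. A match is a run of letters and not a measured binding site.

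The arrays resembled each other in overall signal. The median intensity was 153.4 to 168.1 and 15509 to 16459 probes were detected. The treatments could be read in their known early targets on the log2 scale: the transcription factor EGR1 was at 10.02 and 10.34 without growth factors and at 14.37 on both FGF2 arrays, the MAPK phosphatase DUSP6 was at 8.47 and 8.74 against 12.11 and 12.19, and ID1 was at 12.49 and 12.54 with BMP4 against 9.73 and 9.74. All 10 stromal markers on the list were tested, with a summed intensity of 102987 to 139900, of which the -GFs arrays had 130956 and 133505 and the FGF2 arrays 112134 and 102987. Of 6 endothelial markers 2 could be tested, of 6 blood markers 1, of 4 epithelial markers 1, of 6 adipocyte markers 3, of 4 pluripotent cell markers 1 and of 4 neuron markers 0, and no marker of any type was called with either factor. The summed stromal markers were lowest on the FGF2 arrays, although PDGFRB, alone of the 10, was higher with FGF2 (log2 difference 0.37). The only tested blood marker, CD14, was at 1556 and 1649 with FGF2 against 1700 to 2010 elsewhere (log2 difference -0.27, limma adjusted p = 0.310). The only tested epithelial marker, CDH1, was also lowest with FGF2 but near the edge of detection on all arrays, at 199.6 to 230.8. The part of these markers in the results below was not tested.

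The name given to the group holds for 3 of the 5 genes. By fitted log2 difference, 9430052C07RIK, RASL11B and FAM107A ranked 1, 2 and 4 among the falls over 11872 genes, with the apoptosis gene BMF at rank 3. ADH7 ranked 129 and CDO1 ranked 151, so they are among the genes that fell with FGF2 but not among those that fell most. All 5 had a fitted log2 difference below -1, as did 1.44% of all genes tested, and 1.25% of all genes were called down at that fold with an adjusted p below 0.1. Since this contrast chose the genes, nothing is read from that count. A lower signal in a culture can mean less RNA per cell or fewer cells with the RNA, and bulk RNA cannot tell these apart.

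**Figure D1:**
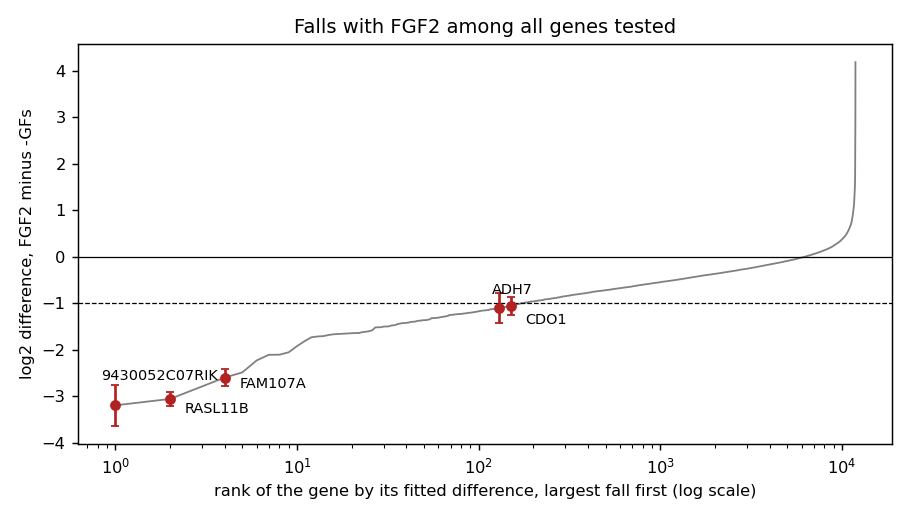
The fitted log2 difference of FGF2 minus -GFs (vertical axis) against its rank among 11872 genes on a log scale, with the 5 genes as red points with the SE of the fit and all genes as a grey line. 9430052C07RIK, RASL11B and FAM107A stand at ranks 1, 2 and 4, ADH7 and CDO1 at ranks 129 and 151 near the dashed line at -1.

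The noncoding gene 9430052C07RIK had the largest fitted fall of any gene. Its deposited intensity was 3483 and 1842 without growth factors, 351.4 and 199.7 with FGF2, and 2042 and 1027 with BMP4, replicate 1 first in each pair. Both FGF2 arrays were far below the other 4, and replicate 2 was below replicate 1 in every group. After normalization the log2 level was 11.25 ± 0.47 without growth factors, 8.05 ± 0.57 with FGF2 and 10.55 ± 0.82 with BMP4 (SD, n = 2). The log2 difference of FGF2 from -GFs was -3.20 (SE 0.44), and taken within replicates it was -3.13 and -3.26. FGF2 thus left 11.4% and 10.4% of the signal. The lower FGF2 array was near the edge of detection, with a detection p of 0.0342, so that the size of this fall rests on how background is treated: with the normexp correction of neqc it was -4.20, with pairs of -3.74 and -4.66 that left 7.49% and 3.95%.

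The same RefSeq gene is named on 2 other probes of the array, which the rule leaves out because they carry other names. The probe named 2700063P19RIK read 1397 and 688.2 without growth factors, 705.5 and 526.8 with FGF2, and 903.9 and 794.2 with BMP4. In deposited intensity the FGF2 array of replicate 1, at 705.5, was just above the -GFs array of replicate 2, at 688.2. After normalization the log2 levels were 10.26 and 9.51 without growth factors and 9.45 and 9.12 with FGF2. The log2 difference was -0.60 (SE 0.27), with pairs of -0.81 and -0.39. The third probe, named C430049B03RIK, was detected on 0 of the 6 arrays. Probes assigned to this locus therefore differed in how far they fell, and the large fall is that of 1 probe.

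RASL11B, the RAS-like GTPase, had the second largest fitted fall. Its brighter probe read 4831 and 4546 without growth factors, 556.3 and 497.9 with FGF2, and 6228 and 6193 with BMP4. Both FGF2 arrays were lowest, as the choice of genes favours, and both BMP4 arrays were highest. The share of all genes with such an order of arrays was not counted, here or for the genes below. The log2 level was 12.14 ± 0.066, 9.08 ± 0.049 and 12.64 ± 0.20 in the order -GFs, FGF2, BMP4 (SD, n = 2). The log2 difference with FGF2 was -3.06 (SE 0.16), with 12.7% and 11.3% of the signal left in the replicate pairs. The second RASL11B probe gave the same picture, with a log2 difference of -2.89 and pairs of -2.90 and -2.88.

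FAM107A, the actin-associated stress gene, fell nearly as far. Its intensity was 4587 and 4151 without growth factors, 648.5 and 703.8 with FGF2, and 2600 and 3829 with BMP4. Both FGF2 arrays were again lowest, and both BMP4 arrays lay between FGF2 and -GFs. The log2 level was 12.03 ± 0.033, 9.43 ± 0.14 and 11.67 ± 0.24 in the order -GFs, FGF2, BMP4 (SD, n = 2). The log2 difference with FGF2 was -2.60 (SE 0.18), which left 15.6% and 17.4% of the signal.

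ADH7, the retinol-oxidising enzyme, fell by about the amount of the threshold and from a bright signal. Its brighter probe read 21836 and 28889 without growth factors, 8346 and 13080 with FGF2, and 17890 and 33288 with BMP4. Both FGF2 arrays were below the other 4, and replicate 2 was above replicate 1 in every group, the opposite of 9430052C07RIK. The log2 level was 14.51 ± 0.42, 13.40 ± 0.48 and 14.58 ± 0.40 in the order -GFs, FGF2, BMP4 (SD, n = 2). The log2 difference with FGF2 was -1.10 (SE 0.32), and within replicates it was -1.15 and -1.06, so that 45.2% and 47.9% of the signal was left. Without FGF2 replicate 1 the difference was -0.77. That value sets FGF2 replicate 2 against both -GFs replicates, so the higher level of replicate 2 enters it. The second ADH7 probe was dim, between 167.2 and 222.6 and detected on 4 of 6 arrays, with a log2 difference of -0.16, and the mean of both probes gave -0.63.

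CDO1, the cysteine-degrading enzyme, fell by a like amount, with FGF2 arrays that differed from each other. Its intensity was 1573 and 1255 without growth factors, 554.2 and 731.3 with FGF2, and 1045 and 1092 with BMP4. The FGF2 arrays were lowest and the BMP4 arrays lay between FGF2 and -GFs. The log2 level was 10.40 ± 0.043, 9.35 ± 0.34 and 10.10 ± 0.049 in the order -GFs, FGF2, BMP4 (SD, n = 2). The log2 difference with FGF2 was -1.06 (SE 0.19), and the pairs were -1.33 and -0.79, which left 39.8% and 58.0% of the signal. Without FGF2 replicate 1 the difference was -0.82.

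**Figure D2:**
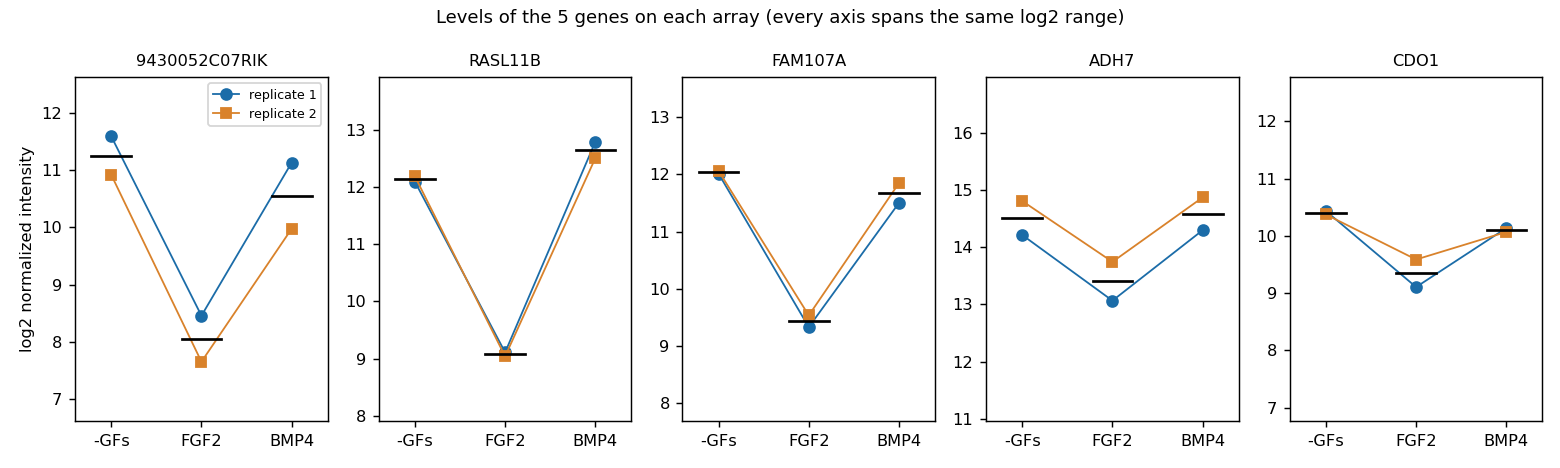
The log2 normalized intensity of each of the 5 genes (1 panel each, all axes spanning the same log2 range) on the 6 arrays by treatment, with circles for replicate 1, squares for replicate 2, lines joining arrays of the same replicate and black bars at the group mean. Both FGF2 arrays are lowest in every panel, replicate 2 is lower throughout for 9430052C07RIK and higher throughout for ADH7.

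With cubic spline normalization the falls came in 2 sizes: 3 genes kept 10.4% to 17.4% of their signal within a replicate pair and 2 genes kept 39.8% to 58.0%. The order of the 3 larger falls was the same under all 4 normalizations. 9430052C07RIK moved most, at -3.20 with quantile normalization, -3.26 with median scaling and -4.20 with neqc. RASL11B ranged from -3.06 to -3.42 and FAM107A from -2.60 to -2.86 over the same normalizations. With any 1 array left out, 9430052C07RIK lay between -3.60 and -2.80, RASL11B between -3.11 and -3.01 and FAM107A between -2.70 and -2.50. The ranges of 9430052C07RIK and RASL11B overlap, although leaving out 1 array breaks its replicate pair. Within pairs 9430052C07RIK fell further both times, at -3.13 and -3.26 against -2.98 and -3.14 for RASL11B. With 2 replicates the order of these genes is not settled. The range of FAM107A lies above both.

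**Figure D3:**
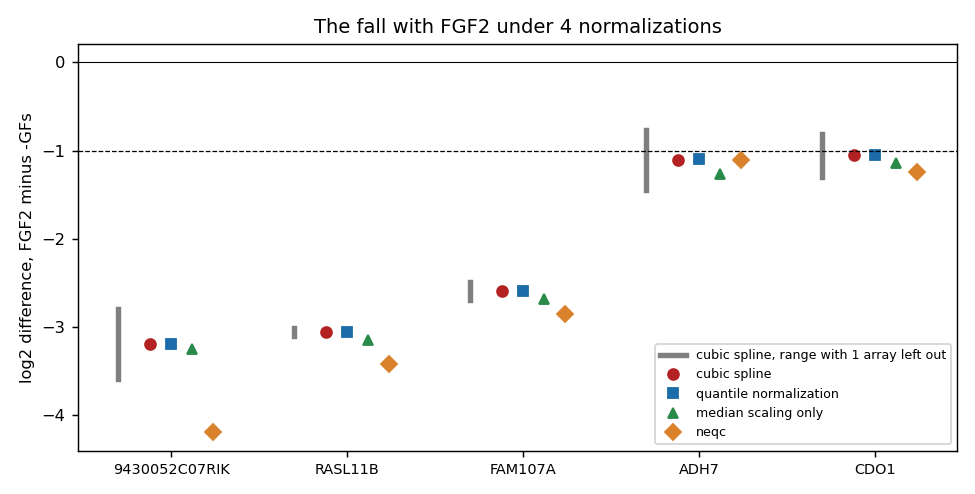
The log2 difference of FGF2 minus -GFs for each of the 5 genes under 4 normalizations (symbols), with a grey bar for its range under cubic spline normalization when 1 array is left out and a dashed line at -1. The neqc value of 9430052C07RIK, -4.20, lies apart from its other 3, and the grey bars of ADH7 and CDO1 cross the dashed line.

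BMP4 against -GFs was a contrast that did not choose the genes, although it shares the -GFs arrays with the one that did. Of the 5 genes, 0 were called with limma at an absolute log2 difference above 1 and a Benjamini-Hochberg adjusted p below 0.1, against 0.00842% of all genes (1 gene, ID1). At an unadjusted p below 0.05 limma without the replicate number had 1 of the 5, RASL11B, where 1.81% of all genes passed. An unmoderated test of each gene on its own variance had 1, CDO1 and not RASL11B, where 3.64% did. With the replicate number in the fit the unadjusted limma p was 0.00018 for 9430052C07RIK, 0.00243 for RASL11B and 0.0199 for FAM107A. It was 0.0690 for CDO1 and 0.599 for ADH7, and the share of all genes below 0.05 in that fit was not counted. The RASL11B difference was 0.51 on the log2 scale (SE 0.16, limma adjusted p = 0.999), higher in both replicate pairs at 0.70 and 0.32, with a 95% interval from 0.13 to 0.89. With the replicate number in the fit the interval was from 0.21 to 0.81 (limma adjusted p = 0.282). The second RASL11B probe gave 0.53. Both BMP4 arrays of RASL11B were above both -GFs arrays, the reverse of FGF2, and this difference failed the correction over all genes.

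The remaining genes were lower or level with BMP4. The choice of genes favours high -GFs arrays, and so favours lower values here, by an amount that was not tested. 9430052C07RIK had a log2 difference of -0.70 (SE 0.44, limma adjusted p = 0.999) with pairs of -0.46 and -0.94, and FAM107A had -0.36 (SE 0.18, limma adjusted p = 0.999) with pairs of -0.51 and -0.21. With the replicate number in the fit the interval of FAM107A was from -0.66 to -0.06 (limma adjusted p = 0.561). CDO1 had -0.30 (SE 0.19, limma adjusted p = 0.999) with the closely matched pairs -0.30 and -0.31. Its interval with the replicate number was from -0.63 to 0.03 (limma adjusted p = 0.740). ADH7 was at 0.07 (SE 0.32, limma adjusted p = 0.999), with pairs of 0.08 and 0.06 and an interval from -0.69 to 0.83. With the replicate number in the fit its interval was narrower, from -0.22 to 0.36. Both intervals hold a change in either direction. The ADH7 difference of 0.07 turned to -0.03 with median scaling and to -0.05 with the mean of both probes.

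With the replicate number as a block, 0 of the 5 were called with BMP4 at the same thresholds, where 0.0842% of all genes were. Without a threshold on the fold the block passed 1 of them, 9430052C07RIK (limma adjusted p = 0.0890), among 0.219% of all genes, a setting chosen after seeing the data. With neqc and the block together its adjusted p was 0.567. The block narrowed the interval of 9430052C07RIK from between -1.76 and 0.35 to between -1.01 and -0.39. Leaving out 1 array moved this difference between -1.28 and -0.12.

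FGF2 and BMP4 were also set directly against each other, without a test because the FGF2 arrays chose the genes. The log2 difference of FGF2 minus BMP4 was -3.57 for RASL11B, -2.50 for 9430052C07RIK, -2.24 for FAM107A, -1.18 for ADH7 and -0.76 for CDO1. Of the 5, 4 were below -1, as were 1.21% of all genes tested, and the fifth was CDO1. The count was 3 with the mean of the probes (ADH7 at -0.58), without FGF2 replicate 1 (ADH7 at -0.84) and without BMP4 replicate 2 (ADH7 at -0.89).

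The replicate number was a second measure that the choice did not use. Within each group, 9430052C07RIK was lower in replicate 2, by log2 -0.67 without growth factors, -0.80 with FGF2 and -1.15 with BMP4, a fitted difference of -0.88 (SE 0.12, limma adjusted p = 6.56e-05). ADH7 was higher in replicate 2, by 0.59, 0.68 and 0.57 in the same order, a fitted 0.61 (SE 0.11, limma adjusted p = 0.000727). These 2 of 5 genes passed, and so did 28.8% of all genes. The other 3 did not: FAM107A was at 0.20 (limma adjusted p = 0.235), CDO1 at 0.12 (limma adjusted p = 0.556) and RASL11B at -0.09 (limma adjusted p = 0.642). For CDO1 the groups disagreed, at 0.48 with FGF2 against -0.06 and -0.07 in the others.

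**Figure D4:**
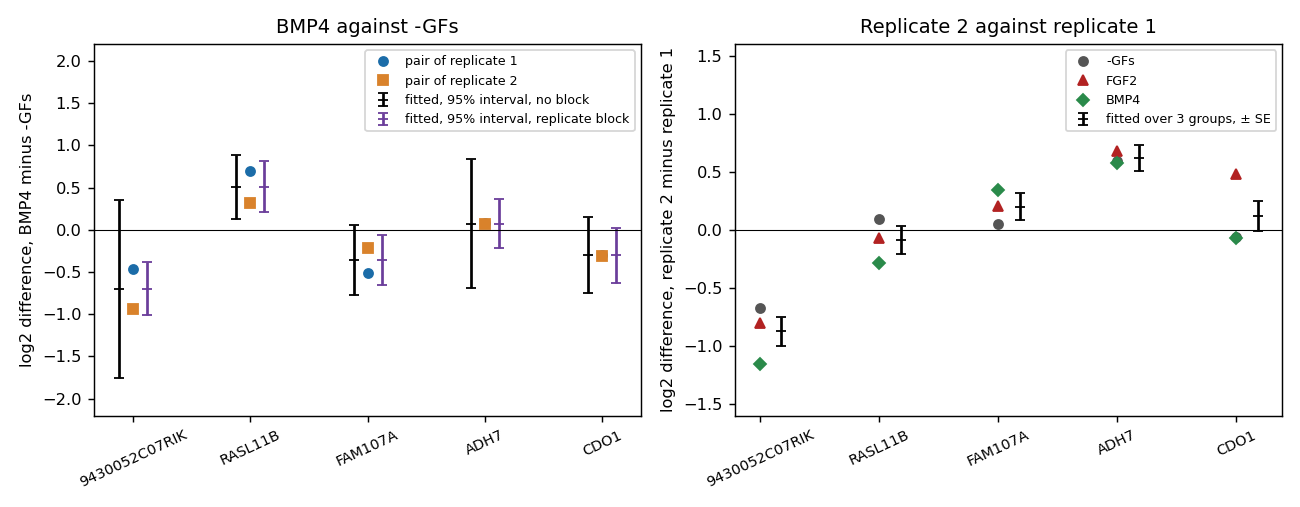
Left, the log2 difference of BMP4 minus -GFs within each replicate pair (circle and square) with the fitted value and its 95% interval without (black) and with (purple) the replicate block. Right, the log2 difference of replicate 2 minus replicate 1 in each treatment group with the fitted value and its SE. RASL11B is above 0 on the left in both pairs, and on the right all 3 groups lie below 0 for 9430052C07RIK and above 0 for ADH7.

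The genes whose profile over the 6 arrays was closest to each of the 5 were found by the root mean square difference of centred log2 values. Nearest to FAM107A were DBP, a clock-controlled transcription factor (0.23), ACOT1, an acyl-CoA thioesterase (0.25), and BMF (0.27). Nearest to 9430052C07RIK were DBP (0.47), ARHGEF19 (0.52) and FAM107A (0.61), and nearest to RASL11B were BMF (0.48), FAM107A (0.59) and DBP (0.63). DBP was near all 3 strongly lowered genes, and FAM107A was itself near the other 2. The FGF2 fall that chose the genes enters this distance, and BMF, DBP and ARHGEF19 ranked 3, 5 and 6 among the falls. Nothing is therefore read from the shared neighbours.

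The 2 genes with smaller falls had neighbours at smaller distances. The distance is in log2 units and more genes lay near a smaller fall, so nothing is read from this. RAMP2, a receptor activity-modifying protein (0.088), RRAD, a RAS-related GTPase (0.11), and TAP1, a peptide transporter (0.15), were nearest to ADH7, and the first of these differed by -1.18 with FGF2 and by 0.76 between replicates on the log2 scale. FAS, the death receptor (0.054), was nearest to CDO1, followed by the array names LOC100044165 (0.095) and 6430511F03 (0.10). Among the 5 themselves the closest pair was ADH7 and CDO1 (0.33) and the next FAM107A and RASL11B (0.59), while the most distant was RASL11B and CDO1 (1.20). These values describe 6 arrays that share the treatment difference used to choose the genes.

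The close relatives of the 5 genes differed in direction with FGF2: ADH1 and ADH5 were lower, while RASL11A, FAM107B and ADO were higher. Of 6 close relatives on the array 5 were tested, and with FGF2 1 was called up and 0 down, where 2.28% of all genes were called up and 1.25% down. With 5 genes and such shares, nothing is read from the 0 called down. The one called was RASL11A, the paralog of RASL11B. It had log2 levels of 11.77 and 11.38 without growth factors, 12.33 and 13.26 with FGF2, and 12.16 and 11.88 with BMP4. Its log2 difference with FGF2 was 1.22 (SE 0.32, limma adjusted p = 0.0737), so that the paralogs differed from -GFs in opposite directions. RASL11A was not called with neqc, without either -GFs array or without FGF2 replicate 2.

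ADH1, the class I alcohol dehydrogenase and the next tested gene to ADH7 on its chromosome, was at 13.98 and 15.04 without growth factors, 12.64 and 13.58 with FGF2, and 14.05 and 15.20 with BMP4. Like ADH7 it was higher in replicate 2 in every group. Its log2 difference with FGF2 was -1.40 (SE 0.51, limma adjusted p = 0.163), not called without the block and called with it (limma adjusted p = 8.22e-07), where 3.95% of all genes were called in either direction. ADH5, the class III enzyme, was at -0.37 (limma adjusted p = 0.225). ADH4 was on the array and did not pass the filter. FAM107B, listed as 3110001A13RIK, was at 0.46 (limma adjusted p = 0.145), and ADO, which like CDO1 oxidises a thiol, was at 0.58 (limma adjusted p = 0.350). With the replicate block the limma adjusted p was 0.0617 for ADH5, 0.0219 for FAM107B and 0.00902 for ADO, all short of the fold.

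In alcohol, aldehyde and retinoid metabolism 15 genes were tested, including ADH1 and ADH5. With FGF2 1 was called up and 0 down, beside 2.28% and 1.25% of all genes. The median log2 difference of the 15 was -0.31, against -0.02 over all genes. ALDH1A3, which makes retinoic acid, rose by 1.40 (limma adjusted p = 0.0396), a call that was lost without -GFs replicate 2 and without either FGF2 array. ALDH1A1, which catalyses the same step, was at -0.91 (limma adjusted p = 0.0280) and ALDH3A1 at -0.60 (limma adjusted p = 0.0791), both short of the fold, so that 3 of 15 passed the adjusted p alone, where 11.8% of all genes did. With neqc both were called down, ALDH1A1 at -1.57 (limma adjusted p = 0.0283) and ALDH3A1 at -1.10 (limma adjusted p = 0.0671).

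In cysteine, taurine and glutathione metabolism 14 genes were tested and 0 were called, with a median of -0.06. Of all genes 2.28% were called up and 1.25% down. Whatever the fold, 5 of 14 passed the limma adjusted p, against 11.8% of all genes. MAT2A, which makes S-adenosylmethionine, was at 0.86 and GCLM, the modifier subunit of glutathione synthesis, at 0.66. SUOX, sulfite oxidase, was at -0.75, ETHE1, a persulfide dioxygenase, at -0.71 and TST, a thiosulfate sulfurtransferase, at -0.66. With neqc 2 of these were called down, SUOX at -1.54 (limma adjusted p = 0.0349) and TST at -1.50 (limma adjusted p = 0.0602). The sulfide-oxidising SQRDL was at 0.17 (limma adjusted p = 0.643) and the sulfurtransferase MPST at -0.23 (limma adjusted p = 0.469). SLC7A11, the cystine importer, was at 0.02, and CSAD, which acts after CDO1 on the way to taurine, at -0.19.

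Of 23 RAS-like small GTPases tested, RASL11A was the 1 called up and 0 were called down, beside 2.28% and 1.25% of all genes. The median log2 difference of the 23 was 0.15. RRAS2, at 0.77, passed the adjusted p but not the fold, and was called with neqc at 1.01. RRAD, one of the nearest profiles to ADH7, was at -0.95 (limma adjusted p = 0.131, and 6.78e-05 with the replicate block), short of the fold.

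Of 18 genes of the glucocorticoid receptor list, which was set beside FAM107A, 2 were called up and 1 down, beside 2.28% and 1.25% of all genes, with a median log2 difference of 0.06. The metallothionein MT2 rose by 1.86 (limma adjusted p = 0.00839) and the iron-siderophore binder LCN2 by 1.94 (limma adjusted p = 0.0531), while the mTOR inhibitor DDIT4 fell by 1.42 (limma adjusted p = 0.00777). LCN2 was not called without -GFs replicate 1 or without FGF2 replicate 2. TSC22D3, a receptor target known as GILZ, was at -0.97 (limma adjusted p = 0.119), FKBP5 at -0.27 (limma adjusted p = 0.301) and PER1 at -0.37 (limma adjusted p = 0.216). With the replicate block their limma adjusted p was 0.00011, 0.148 and 0.0506 in that order, all short of the fold. On the other side of 0, the kinase SGK1 was at 0.78 and passed the adjusted p but not the fold (limma adjusted p = 0.0350), DUSP1 was at 0.47 (limma adjusted p = 0.135) and KLF9 at 0.45 (limma adjusted p = 0.426). For these the block gave a limma adjusted p of 0.000482, 0.0163 and 0.0304, again short of the fold. With BMP4, 0 genes were called in any of the 5 lists, beside 0.00842% of all genes, so little can be read from that count.

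**Figure D5:**
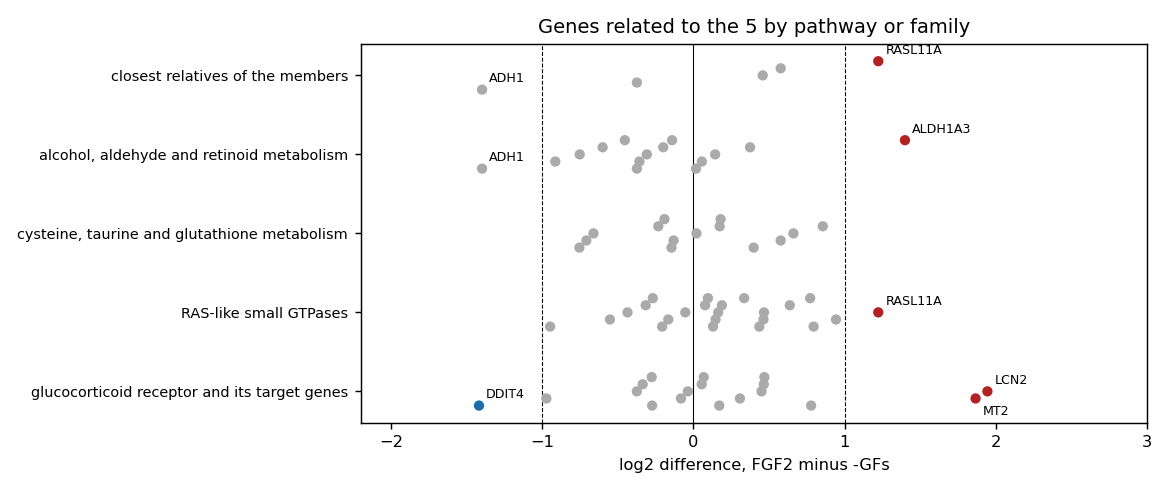
The log2 difference of FGF2 minus -GFs of each tested gene in 5 lists of relatives and pathway partners (rows, with points spread vertically only for legibility), red where called up, blue where called down and grey where not called, with dashed lines at -1 and 1. RASL11A, ALDH1A3, MT2 and LCN2 are red, DDIT4 is blue, and ADH1 lies at -1.40 in grey.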

How the data were processed

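RNA of 6 PA6 cultures, 2 for each of 3 groups, was hybridised to Illumina mouse BeadChips. The authors deposited non-normalized probe intensity values with detection p-values, exported with GenomeStudio 2011.01 per the labels. Detection p-values were used as deposited. The table has 9 unheaded columns on 2045 lines and 6 leftover lines, none of which were used.

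Following the study's methods, intensities were normalized with a cubic spline (re-implemented on 452 quantiles), log2 transformed, and filtered at a detection p below 0.05, with the probe of the largest mean standing for a gene. How many arrays must pass is not given in the methods, and both arrays of at least 1 group were asked for here. limma 3.58.1 in R 4.3.3 fitted all 6 arrays with 1 shared spread, Benjamini-Hochberg adjustment ran over 11872 genes, and a gene was called at an absolute log2 difference above 1 and an adjusted p below 0.1. The code was tested on simulated data.

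The labels make each biological replicate 1 well of each treatment, and deviations of same-numbered arrays correlated across genes at 0.602, 0.741 and 0.579, so the numbers pair the arrays. The main fit of the treatments left the replicate number out, so its adjusted p-values ignore the pairing unless the replicate number or block is named. With 2 arrays a group, an exact permutation test cannot go below p = 0.333, and the number of arrays limits the precision.

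The 5 genes and the lists were chosen with earlier results of these data known. Named were all probes of the 5 genes, EGR1, DUSP6 and ID1, the 10 largest falls (in part), the 3 nearest profiles, the close relatives and the called list genes. Other list genes with values were named after these were seen. A match of array names to RefSeq symbols was exact or through a synonym of 1 gene only. Alternatives were quantile normalization, median scaling, neqc (offset 16), 3 filters, other ways to treat probes, trended robust moderation, an unmoderated test, the replicate block, no threshold on the fold, and leaving out each array.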

Additional observations from a re-analysis of the deposited data

How the results depend on the processing

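All 5 genes kept a negative FGF2 difference under all 13 alternatives run. Since this contrast chose the genes, nothing is read from the kept sign. The other filters on dim probes and leaving out a BMP4 array do not change the difference by construction. The number with a log2 difference below -1 was 5 and became 3 without FGF2 replicate 1, where ADH7 and CDO1 passed above -1, and 4 without -GFs replicate 2 (ADH7 at -0.81) and with the mean of the probes (ADH7 at -0.63). Leaving out 1 array breaks its replicate pair and was run without the block, so those values include the difference between replicates. With the replicate block the FGF2 differences are the same by construction. Their SEs were smaller for all 5 genes, such as 0.15 for 9430052C07RIK and 0.14 for ADH7, against 0.44 and 0.32 without it. For BMP4, 0 of the 5 were called and 1 was with the replicate block and no threshold on the fold, an alternative chosen after seeing the data; neqc with the block left 1 gene of all those tested at that threshold, against 26. The ADH7 difference with BMP4, 0.07, reversed to -0.028 with median scaling and -0.049 with the mean of its probes, and lay between -0.22 and 0.37 with 1 array left out (negative without -GFs replicate 1 and without BMP4 replicate 2). The replicate difference of RASL11B, -0.09, lay between -0.18 and 0.012 with 1 array left out, positive without either BMP4 array, and that of CDO1, 0.12, between -0.065 and 0.21, negative without either FGF2 array.

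Over the 71 list genes tested, 4 were called up with FGF2. This was 9 with no threshold on the fold, 21 with the replicate block and no threshold (chosen after seeing the data), 0 with the unmoderated test after adjustment and 1 to 4 with 1 array left out (2 without either -GFs array, 1 without FGF2 replicate 2). Called down was 1, against 2 with median scaling (adding RRAD), 2 with the replicate block (adding ADH1), 6 with neqc, 6 with no threshold on the fold, 17 with the block and no threshold, and 0 with the unmoderated test. The cause was not tested. The slide as a block was not run. Signal near background limits the size of the 9430052C07RIK fall and the dim ADH7 probe.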

Other observations

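The tested genes next to the 5 on their chromosomes, chosen after values were seen, mostly did not follow them. Of 10 such neighbours 1 was called with FGF2: EIF1A, a translation initiation factor gene beside CDO1, rose by 1.10 on the log2 scale (limma adjusted p = 0.0258), where 2.28% of all genes were called up and 1.25% down. With the replicate block 2 of the 10 were called, EIF1A and ADH1, where 3.95% of all genes were. ATG12, the autophagy gene on the other side, was at 0.18. Beside the noncoding gene 9430052C07RIK lay HPRT1, the purine salvage enzyme, at 0.74 (limma adjusted p = 0.0971, short of the fold) and PLAC1 at -0.41. Beside RASL11B, USP46 was at -0.19 and FIP1L1 at 0.34. Beside FAM107A, KCTD6 was at -0.13 and PTPRG at 0.11. Beside ADH7, TRMT10A was at 0.06 and ADH1 at -1.40.

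Of the 10 genes with the largest falls, the 7 outside the group were BMF (-2.79), DBP (-2.49), ARHGEF19 (-2.23), AI464131 (-2.11), ACOT1 (-2.11), DDIT4L (-2.06) and HYAL1 (-1.92), each as a log2 difference of FGF2 from -GFs.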
